A study of Mus musculus with 52 samples.

Results

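The promoters described here belong to genes that write, read or erase DNA methylation and whose proteins lack a ZF-CxxC domain. They were chosen as the rows of the ATAC tables whose RefSeq identifier maps to Dnmt3a, Dnmt3b, Dnmt3l, Uhrf1, Tet2, Tdg, Mbd2, Mbd3, Mbd4 or Zfp57. This gave 12 promoter intervals of 9 genes among the 20633 intervals of each table, and Tdg was not analysed here. Dnmt3a was represented by 2 intervals, Dnmt3l by 3 and each of the other genes by 1.

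Calibrated ATAC-seq (cATAC-seq) gave the chromatin accessibility, in which the Tn5 transposase tags open DNA and Drosophila SG4 cells added to the mouse cells give a common scale. The cells were mouse embryonic stem cells (mESCs) of 4 conditional lines that all carry a tamoxifen-inducible CRE recombinase at Rosa26. The untreated libraries of each line were its control, and the other libraries came from cells given tamoxifen (800 nM for 96 h). In Kdm2a/b-JmjC fl/fl cells tamoxifen deletes the JmjC demethylase exons, so that the long forms of KDM2A and KDM2B are lost. The exon for the ZF-CxxC domain is deleted from both genes in Kdm2a/b-CXXC fl/fl cells, from Kdm2a alone in Kdm2a-CXXC fl/fl cells, and from Kdm2b alone in Kdm2b-CXXC fl/fl cells. There were 4 libraries per group in Kdm2a/b-CXXC and 3 per group in the other lines, which makes 26. Kdm2a-CXXC and Kdm2a/b-CXXC are each 1 targeted clone, the latter made from Kdm2b-CXXC cells, the JmjC cells came from mice with these alleles, and no library came from tamoxifen-treated cells without a floxed gene, so an effect of tamoxifen or CRE cannot be told apart from that of the deletion. The methods of the study call the replicates biological, without saying how they were separated, and p-values measure the spread between these libraries.

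DNA methylation is placed on CpG sites by DNMT3A and DNMT3B, with DNMT3L as a catalytically inactive partner that is abundant in mESCs and germ cells. UHRF1 recognises hemimethylated CpGs after replication and recruits the maintenance enzyme DNMT1. TET2 oxidises 5-methylcytosine, which starts its removal. MBD2 and MBD3 are alternative subunits of the NuRD deacetylase complex, of which MBD2 binds methylated CpGs, MBD4 is a glycosylase that repairs T opposite G at CpG sites, and ZFP57 binds a methylated motif at imprinted loci. KDM2A and KDM2B recognise the opposite state, unmethylated CpGs, through their ZF-CxxC domains, and CpG islands are where both proteins are found.

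The intervals differ widely in CpG content, and the 200 bp upstream of the transcription start site (TSS) are shown for 6 of them because they span this range and include both starts of Dnmt3a. Each is printed 5′ to 3′ on the strand of the gene, from RefSeq's GRCm38.p6 assembly (the same build as mm10), with CpG dinucleotides in capitals.
Dnmt3a upstream promoter (NM_007872): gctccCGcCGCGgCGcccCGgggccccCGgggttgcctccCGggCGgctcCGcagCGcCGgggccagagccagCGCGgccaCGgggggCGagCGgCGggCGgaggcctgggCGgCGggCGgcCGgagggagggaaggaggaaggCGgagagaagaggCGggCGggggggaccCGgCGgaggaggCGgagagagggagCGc
Dnmt3a internal promoter (NM_153743): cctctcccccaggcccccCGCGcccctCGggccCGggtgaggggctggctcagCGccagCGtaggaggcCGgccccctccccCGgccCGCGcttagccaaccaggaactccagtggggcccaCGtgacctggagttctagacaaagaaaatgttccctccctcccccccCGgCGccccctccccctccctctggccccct
Dnmt3l (NM_019448): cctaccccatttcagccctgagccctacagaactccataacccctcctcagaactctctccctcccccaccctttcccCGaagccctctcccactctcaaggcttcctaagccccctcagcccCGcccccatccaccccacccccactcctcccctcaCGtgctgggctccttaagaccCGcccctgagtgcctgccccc
Tet2 (NM_001040400): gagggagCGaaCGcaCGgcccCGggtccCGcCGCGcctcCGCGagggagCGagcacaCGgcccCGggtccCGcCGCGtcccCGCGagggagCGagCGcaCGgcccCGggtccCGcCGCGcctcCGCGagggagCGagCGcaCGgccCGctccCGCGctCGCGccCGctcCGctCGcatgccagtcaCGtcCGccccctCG
Mbd3 (NM_013595): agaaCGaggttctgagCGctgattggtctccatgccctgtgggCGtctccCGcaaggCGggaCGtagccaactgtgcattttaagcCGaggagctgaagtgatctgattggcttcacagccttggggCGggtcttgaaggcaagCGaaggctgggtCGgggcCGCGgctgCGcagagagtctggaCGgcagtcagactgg
Zfp57 (NM_001168502): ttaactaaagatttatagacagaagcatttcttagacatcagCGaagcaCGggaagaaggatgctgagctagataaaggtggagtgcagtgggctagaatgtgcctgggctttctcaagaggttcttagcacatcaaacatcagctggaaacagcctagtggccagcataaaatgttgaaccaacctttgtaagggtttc

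The printed stretch of the upstream Dnmt3a promoter (chr12:3806780-3806979, plus strand) holds 29 CpGs, and that of the internal promoter (chr12:3891544-3891743, plus strand), from which the short DNMT3A2 form is made, holds 13. The Dnmt3l stretch (chr10:78049642-78049841, plus strand) has 4 and the Mbd3 stretch (chr10:80399532-80399731, minus strand) 14. Tet2 (chr3:133544391-133544590, minus strand) has 40 CpGs, the most of the 11 stretches taken, and Zfp57 (chr17:37000963-37001162, plus strand) has 2, the fewest.

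All intervals are 400 bp long and centred on the TSS, with 200 bp upstream and the rest in noncoding exon or intron, except that 75 bp of Mbd2 and 69 bp of Mbd4 are coding. Over the whole interval the observed to expected CpG ratio ran from 0.162 in Zfp57 to 1.08 in Tet2, against a median of 0.672 over all promoters. Of the 12 intervals, 6 were CpG-rich (GC content of at least 0.5 and a ratio of at least 0.6), namely the upstream Dnmt3a promoter, Dnmt3b, Tet2, Mbd2, Mbd3 and Mbd4, and 54.6% of all promoters met the same rule. The internal Dnmt3a promoter had a ratio of 0.468, Uhrf1 of 0.541, and the Dnmt3l intervals of 0.22, 0.437 and 0.18 in genomic order.

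Short sequence motifs were searched on both strands of each interval, with any overlap between motifs left as it is. The GC box GGGCGG, bound by SP and KLF factors, was present in 11 of the 12, all but Zfp57, and in 56.3% of all promoters and 82.7% of the CpG-rich ones. Zfp57 was the one interval with TATAAA, which 10.4% of all promoters hold. CCAAT was found in Uhrf1, Mbd3, Mbd4 and a pair of Dnmt3l intervals, 5 of 12 against 40% of all promoters. The E-box CACGTG was found in the internal Dnmt3a promoter and a pair of Dnmt3l promoters (9.54% of all promoters), and the ETS motif CCGGAAG in Mbd2 alone (14.1%). TGCCGC, the motif that ZFP57 binds when methylated, lay in Mbd2 and the upstream Dnmt3a promoter (24.6% of all), not in Zfp57's own. None held the NRF1 motif GCATGCGC (3.93%), the CRE TGACGTCA (2.56%) or the BANP motif CTCGCGAG (1.47%).

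A neighbouring gene shared reads with one of these promoters. The Mbd4 interval (chr6:115853142-115853541) overlapped the deposited interval of Ift122, which is transcribed away from it on the other strand, by 214 bp, and ATAC reads there cannot be given to either gene. The Aire interval lay 925 bp from the most upstream Dnmt3l interval and did not overlap it.

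The libraries held between 1488370 and 3025358 promoter reads, with size factors between 0.718 and 1.41. Levels below are calibrated reads, the reads in an interval divided by the spike-in size factor of the library, and all intervals have the same length. Each line was calibrated on its own, so levels are compared between lines as the percentile of an interval among all promoters of its library or as reads per 1000000 promoter reads. As a check of the cells, 5 of 9 promoters of pluripotency markers had a median percentile above 50 over all 26 libraries. Zfp42 was at 90.4, Sox2 at 88.6, Tfcp2l1 at 86.4, Klf4 at 83.9 and Nanog at 55.8. Pou5f1 was at 48.3, Tdgf1 at 48.0 and the Esrrb promoters at 41.2 and 18.4. None of 5 promoters of fibroblast markers and none of 7 promoters of genes of other tissues did, and of 8 promoters of germ layer markers 3 did. In untreated Kdm2a/b-JmjC libraries alone, 4 of 9 pluripotency, 5 of 8 germ layer and 1 of 5 fibroblast promoters were above 50. The check therefore did not separate pluripotency from germ layer markers in that line. The summed level of the 9 pluripotency promoters ran from 936 to 1028 in untreated and 832 to 1023 in tamoxifen libraries of Kdm2a/b-JmjC, from 774 to 925 and 696 to 954 in Kdm2a/b-CXXC, from 989 to 1702 and 1031 to 1827 in Kdm2b-CXXC, and from 1434 to 1804 and 1176 to 1514 in Kdm2a-CXXC. The fibroblast sum stayed between 75.4 and 245 calibrated reads in every library.

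In untreated mESCs Mbd4, Mbd3 and Mbd2 were the most accessible members and Zfp57 and the outermost Dnmt3l promoter the least. Over the 13 untreated libraries, the percentile of Mbd4 had a median of 99.3 (range 96.6 to 99.9), that of Mbd3 97.1 (94.4 to 98.6) and that of Mbd2 88.8 (79.3 to 91.9). Uhrf1 followed at 72.3 (58.9 to 80.6), Tet2 at 68.2 (58.5 to 86.4) and Dnmt3b at 59.8 (49.3 to 64.1). The de novo methyltransferase cofactor and catalytic genes with alternative promoters sat near or below the middle, with NM_019448 of Dnmt3l at 46.7 (40.9 to 58.9), the internal Dnmt3a promoter at 46.7 (34.8 to 53.1) and the upstream Dnmt3a promoter at 42.4 (35.2 to 49.7). The Dnmt3l promoter NM_001284198 was at 33.2 (30.3 to 45.7), Zfp57 at 24.6 (9.35 to 37.1) and NM_001081695 of Dnmt3l at 16.8 (7.06 to 24.2), and the last held between 5 and 18 reads over all 26 libraries.

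**Figure D1:**
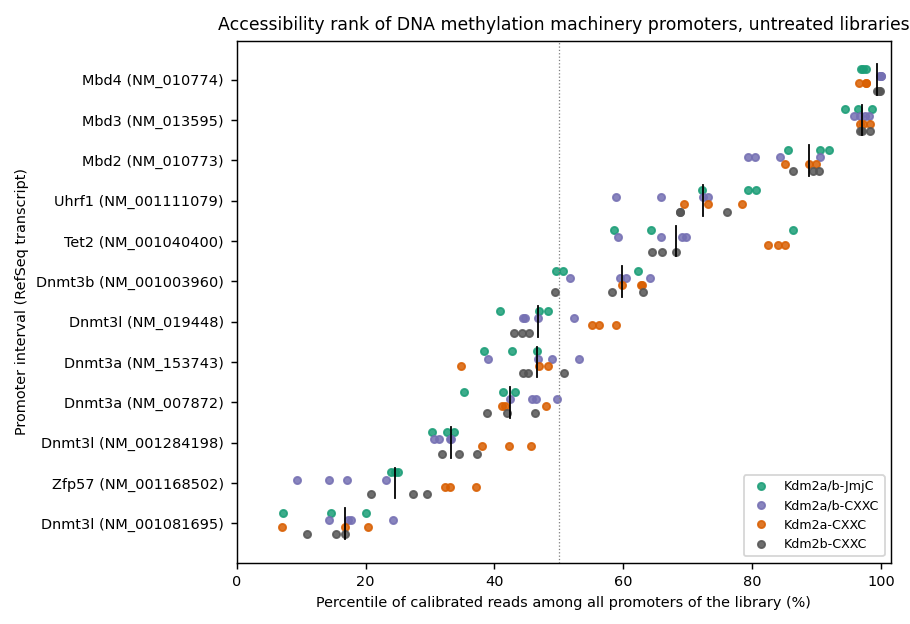
Percentile of each DNA methylation machinery promoter among all promoters of a library (x axis, %), for the 13 untreated libraries coloured by line; black bars are medians over these libraries and the dotted line marks the middle of the ranking. Mbd4 and Mbd3 lie above 94 in every library, and the Kdm2a-CXXC libraries lie to the right of all others for Dnmt3l (NM_019448), Dnmt3l (NM_001284198) and Zfp57, and for Tet2 of all but Kdm2a/b-JmjC replicate 3 at 86.4.

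The order of neighbours was often within the spread. Ranked by mean calibrated reads, the ranges of 8 of the 11 neighbouring pairs overlapped in Kdm2b-CXXC, 6 in Kdm2a/b-CXXC and 5 in each of the other lines. Mbd4 and Mbd3 were the top pair in each line and overlapped in all but Kdm2a/b-CXXC. In that line Mbd4 read 341, 335, 353 and 319 calibrated reads and Mbd3 199, 234, 206 and 211. The internal and upstream Dnmt3a promoters also overlapped in each line, at 52.8 ± 11.1 and 45.7 ± 9.24 calibrated reads (SD, n = 3) in untreated Kdm2a/b-JmjC cells, so neither start of this gene was the more open beyond the spread.

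CpG content and accessibility went together across promoters, but these intervals spread around the relation. The median untreated percentile was 70.7 over 11262 CpG-rich promoters (quartiles 54.7 and 85) and 21.7 over 9368 others (quartiles 11.9 and 36.3). The 6 CpG-rich members had medians from 42.4 to 99.3, and the other 6 from 16.8 to 72.3. The upstream Dnmt3a promoter, with 64 CpGs in its 400 bp and a ratio of 0.983, was the lowest of the CpG-rich ones at 42.4, where the lower quartile of promoters with a ratio from 0.9 to 1.0 was 59.4. Uhrf1, with 19 CpGs, was the highest of the other 6 at 72.3, above the upper quartile of 61.6 for its own ratio bin, which starts at 0.5. These are descriptions over 12 intervals, several of which share a gene.

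**Figure D2:**
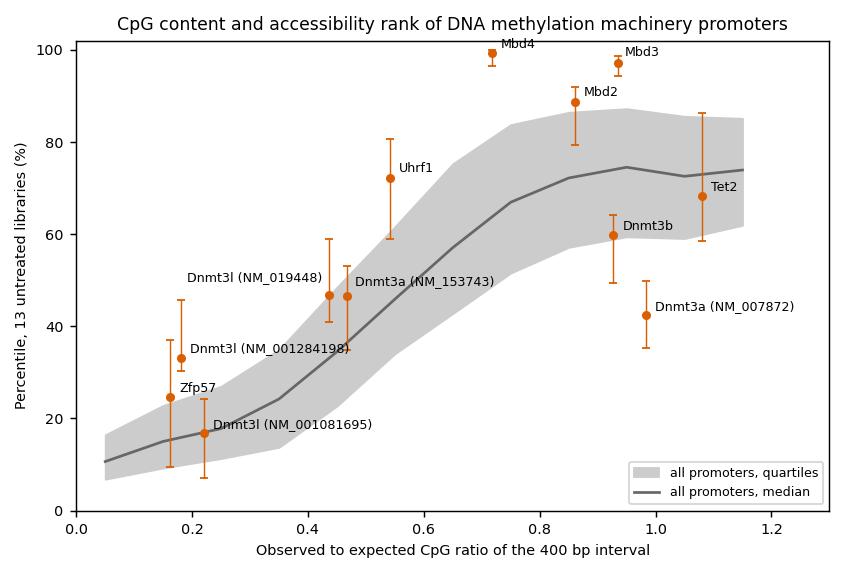
Median percentile over the 13 untreated libraries (y axis, %; bars give the lowest and highest library) against the observed to expected CpG ratio of each interval (x axis); the grey line and band are the median and quartiles of all promoters in bins of 0.1, the last of which also takes higher ratios. The upstream Dnmt3a promoter lies below the band, while Mbd4, Mbd3, Mbd2, Uhrf1, Dnmt3l (NM_001284198) and Zfp57 lie above it.

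Untreated levels also differed between lines at some members, given here as values since lines were calibrated separately. Tet2 had percentiles of 84.0, 82.5 and 85.1 in Kdm2a-CXXC, whereas the other lines lay between 58.5 and 69.7 in all libraries but 1, Kdm2a/b-JmjC untreated replicate 3, at 86.4. In reads per 1000000 promoter reads, Tet2 in Kdm2a-CXXC was 0.57 above the mean of the other lines on the log2 scale, and the median over 829 promoters of chromosome 3 was 0.25 above it in the same line. The part of this chromosome-wide offset in the value of Tet2 was not tested. Zfp57 was 0.96 above the other lines in Kdm2a-CXXC and 0.98 below them in Kdm2a/b-CXXC (log2 difference of -0.98), while the median of 780 promoters on its chromosome moved by -0.02 and 0.03. Dnmt3l NM_019448 and NM_001284198 were 0.44 and 0.52 higher in Kdm2a-CXXC, with a chromosome median of -0.04, and Mbd4 was 0.44 higher in Kdm2a/b-CXXC, with a chromosome median of 0.17.

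The question for each line was whether loss of KDM2 function altered accessibility at these promoters. Each tamoxifen group was compared with its untreated group by limma on log2(calibrated reads + 1), with Benjamini-Hochberg adjustment over all promoters tested, and a promoter was called where the adjusted p fell below 0.05 and the change exceeded 1.4-fold. No member was called in any line. The count was 0 of 12 in Kdm2a/b-JmjC, where 0.0757% of all promoters tested were called. It was 0 of 12 in Kdm2b-CXXC (0% of all), 0 of 12 in Kdm2a-CXXC (0%) and 0 of 11 in Kdm2a/b-CXXC (0%). Unadjusted p under 0.05 was reached by 0 to 3 members per line and is given with each line, and edgeR on the recovered reads also called 0. DESeq2 called 0 as well, but in Kdm2a/b-JmjC it gave an adjusted p for only 3 of the 12 members (Mbd2, Mbd3 and Mbd4). Dnmt3l NM_001081695 had too few reads to be tested in Kdm2a/b-CXXC, where it read 12.8, 7.97, 8.43 and 5.81 calibrated reads without treatment and 6.76, 7.64, 17.6 and 12.8 after tamoxifen. The 95% interval of the fold change stayed within 1.4-fold either way for 3 of 11 in Kdm2a/b-CXXC (29.8% of all promoters tested), 2 of 12 in Kdm2a/b-JmjC (22.8%), 2 of 12 in Kdm2a-CXXC (15.1%) and 0 of 12 in Kdm2b-CXXC (0%). For the other members the interval reached beyond that size.

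**Figure D3:**
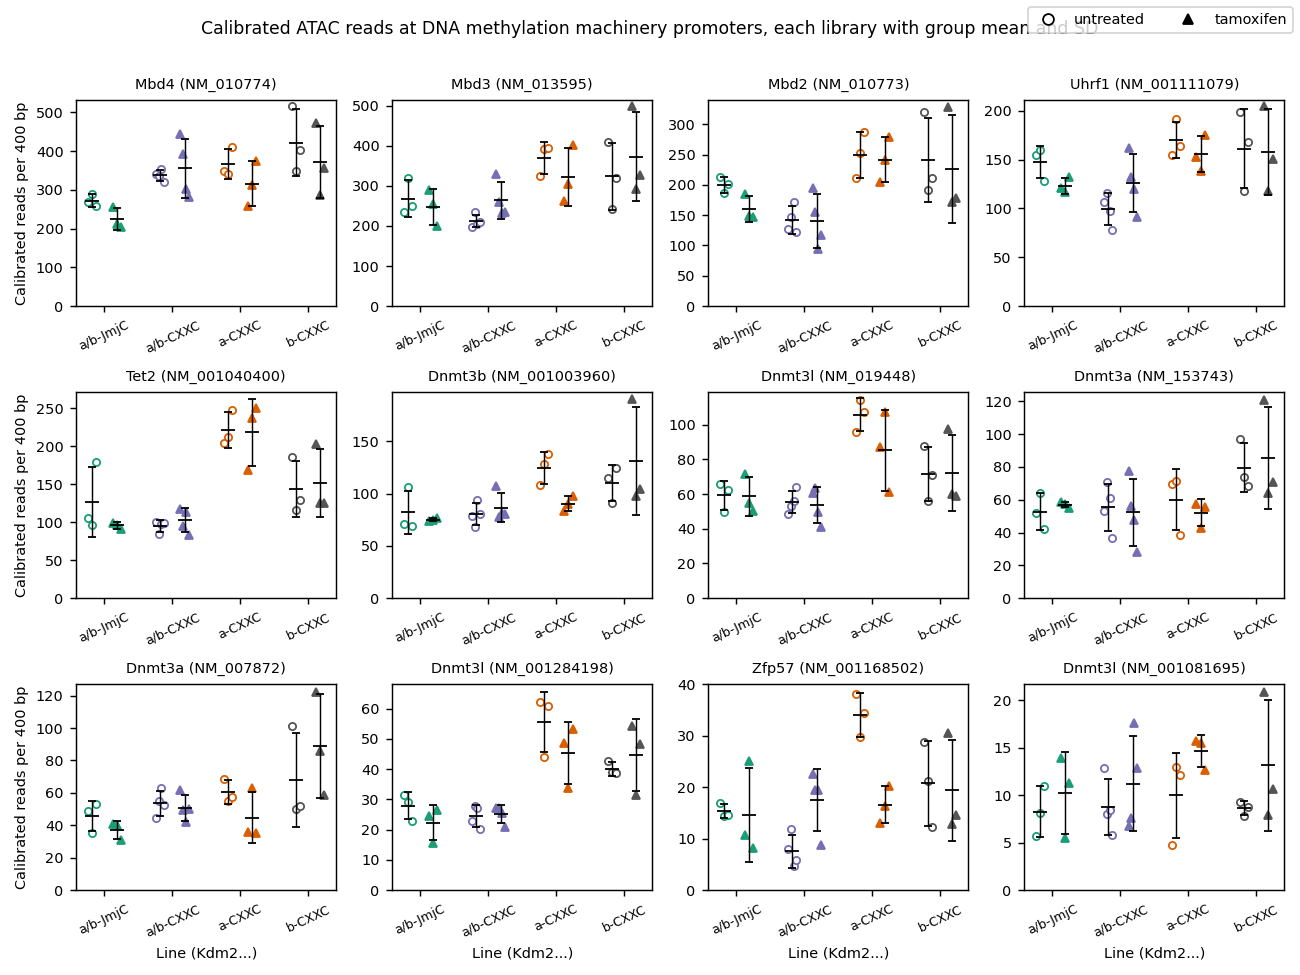
Calibrated reads per 400 bp (y axis, from 0) at each of the 12 intervals, by line (x axis); open circles are untreated and filled triangles tamoxifen libraries, and bars are the group mean ± SD (n = 4 in Kdm2a/b-CXXC, otherwise 3). Most groups overlap; Zfp57 is one of those separated, in Kdm2a-CXXC, from 29.7 to 38.2 untreated against 13.1 to 20.3 after tamoxifen.

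In Kdm2a/b-JmjC, where the long KDM2A and KDM2B forms are removed, these promoters moved with the whole set of promoters. The median log2 fold change was -0.23 over the 12 members and -0.21 over the 17174 promoters tested, with 10 of the 12 negative and a range from -0.35 to 0.23. In bulk libraries a lower level in each cell and fewer cells with an open promoter cannot be told apart. At an unadjusted p under 0.05, 3 of the 12 were lower (Mbd2, Mbd4 and Tet2) against 20.3% of all promoters. All tamoxifen libraries lay below all untreated ones at 2 of the 12, Mbd2 and Mbd4, against 23.2% of all. Relative to the median of all promoters, these values were -0.12 for Mbd2, -0.07 for Mbd4 and -0.14 for Tet2.

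Mbd2 read 212, 186 and 202 calibrated reads without treatment and 185, 149 and 146 after tamoxifen. The groups were separated by the small gap between 185 and 186. It changed by -0.33 on the log2 scale (SE 0.14), and its limma adjusted p of 0.183 was the smallest among the members. Mbd4 read 270, 289 and 258 and then 256, 213 and 205, a change of -0.28 on the log2 scale (SE 0.13, adjusted p = 0.19 by limma). Tet2 read 105, 96.1 and 180 without treatment and 99.3, 96.3 and 91.1 after tamoxifen, so the groups overlapped and untreated replicate 3 stood apart. The log2 fold change was -0.35, and -0.0724 without that library. The writers showed no such separation. The internal Dnmt3a promoter had a log2 fold change of 0.13 and the upstream one of -0.29, Dnmt3b of -0.10 and Uhrf1 of -0.25, with adjusted p from 0.347 to 0.792 (limma). For Dnmt3l it was 0.23 at NM_001081695, -0.02 at NM_019448 and -0.33 at NM_001284198. Their adjusted p were 0.823, 0.973 and 0.571 (limma).

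With TMM scaling, which sets the typical promoter close to no change, the median of all promoters moved from -0.21 to -0.01 and the members split into 5 positive and 7 negative. On that scale 0 of the 12 members had an unadjusted p under 0.05, against 5.63% of all promoters (limma).

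In Kdm2a/b-CXXC, where both proteins lose the ZF-CxxC domain, 7 of the 11 tested members had a positive and 4 a negative log2 fold change, with a median of 0.05 against 0.09 over the 16413 promoters tested. At an unadjusted p under 0.05, 1 of the 11 was higher, Zfp57, against 3.58% of all promoters. The groups overlapped at all 11, and 2.40% of all promoters were separated in either direction. Zfp57, the imprint-maintaining zinc finger protein, read 7.90, 12, 4.69 and 5.81 calibrated reads without treatment and 22.5, 19.5, 19.6 and 8.83 after tamoxifen. The first 3 tamoxifen libraries exceeded every untreated one, and tamoxifen replicate 4 lay within the untreated range. The fold change was 2.16 (95% interval 1.21 to 3.85, limma adjusted p = 0.996), and it rested on between 5 and 23 reads per library. With any 1 library left out the log2 fold change stayed between 0.94 and 1.39.

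Mbd3, the NuRD subunit, read 199, 234, 206 and 211 without treatment and 330, 260, 232 and 234 after tamoxifen. Only 1 untreated library reached the tamoxifen range, and the difference was 0.30 on the log2 scale (SE 0.17). Uhrf1 gave 0.33 (SE 0.19), and the adjusted p was 0.996 for both (limma). The de novo writers were close to no change, at -0.08 and -0.13 for the upstream and internal Dnmt3a promoters, 0.10 for Dnmt3b, and -0.05 and 0.04 for the tested Dnmt3l promoters. Tet2, Mbd2 and Mbd4 gave 0.09, -0.06 and 0.05. With TMM scaling 5 of the 11 were positive and 6 negative, and 2 had an unadjusted p under 0.05, Zfp57 and Mbd3, against 9.64% of all promoters (limma). On that scale the log2 fold changes were 1.03 for Zfp57 and 0.21 for Mbd3, with adjusted p of 0.353 and 0.412 (limma).

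In Kdm2a-CXXC, 11 of the 12 members had a negative log2 fold change, with a median of -0.22 against -0.18 over the 17727 promoters tested. At an unadjusted p under 0.05, 2 of the 12 were lower, Zfp57 and Dnmt3b, against 8% of all promoters. The same promoters were those with all tamoxifen libraries below all untreated ones, 2 of 12 against 13.4% of all. Zfp57 read 38.2, 29.7 and 34.4 calibrated reads without treatment and 13.1, 16.4 and 20.3 after tamoxifen, with a fold change of 0.497 (95% interval 0.31 to 0.797, limma adjusted p = 0.581). It was the largest change of any member in this line, and it rested on 34 to 40 reads per untreated and 15 to 17 per tamoxifen library. With any 1 library left out the log2 fold change lay between -1.16 and -0.86, and the lowest adjusted p, 0.0767 (limma), came without tamoxifen replicate 3.

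Dnmt3b read 108, 129 and 138 without treatment and 83.7, 90.0 and 97.7 after tamoxifen, a fall of the mean with log2 fold change -0.46 (SE 0.21, adjusted p = 0.581 by limma). The upstream Dnmt3a promoter gave -0.47 (SE 0.25, adjusted p = 0.596 by limma), with tamoxifen values of 35.7, 62.9 and 35.5 that overlapped the untreated 68.8, 54.8 and 57.7. The outermost Dnmt3l promoter was the one member with a positive value, 0.61 (SE 0.49), from 4.78, 12.9 and 12.2 to 15.7, 15.5 and 12.7 calibrated reads, which overlapped. Relative to the median of all promoters, Zfp57 stood at -0.83, the upstream Dnmt3a promoter at -0.29 and Dnmt3b at -0.28, while the internal Dnmt3a promoter stood at 0.02, Tet2 at 0.14 and Mbd2 at 0.13. With TMM scaling, which moved the median of all promoters from -0.18 to -0.01, the members split into 5 positive and 7 negative, and 1 of the 12 had an unadjusted p under 0.05, Zfp57 (log2 fold change -0.85), against 6.20% of all promoters (limma).

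In Kdm2b-CXXC the calibration itself varied most between libraries, and the SE of the members' log2 fold changes ran from 0.36 to 0.61. The median was 0.06 over the 12 members and 0.10 over the 17930 promoters tested, with 7 positive and 5 negative. At an unadjusted p under 0.05 there were 0 of 12, against 0.669% of all promoters in either direction, and in calibrated reads no member's groups were separated, against 2.58% of all. With the replicate number as a block, 1 of the 12 had an unadjusted p under 0.05 (limma). So did 1785 of all 17930 promoters, against 120 without the block. Replicate 1 was the highest library at 12 of 12 members after tamoxifen and at 11 of 12 without it, all but Dnmt3b. Mbd4 read 516, 348 and 402 without treatment and 472, 288 and 356 after tamoxifen, and the calibrated total over all promoters ran from 1.75e+06 to 2.96e+06 and from 1.98e+06 to 3.19e+06 in the same groups. The highest total in both groups was that of replicate 1, so its rank at the members went with the whole library. The share of all promoters where it was the highest was not computed.

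With TMM scaling the SE of the members was from 0.085 to 0.50, the 95% interval of 8 of the 12 stayed within 1.4-fold, and 5 were positive and 7 negative. There 2 of the 12 had an unadjusted p under 0.05, Mbd4 and Mbd2, against 7.79% of all promoters (limma). Mbd4 had a log2 fold change of -0.30 (95% interval -0.46 to -0.13, limma adjusted p = 0.292) and Mbd2 of -0.22 (95% interval -0.44 to -0.01, limma adjusted p = 0.629). The percentile of Mbd4 was 99.3, 99.8 and 99.7 without treatment and 97.8, 97.4 and 99.2 after tamoxifen. That of Mbd2 was 89.4, 90.4 and 86.3 and then 87.7, 80.4 and 79.3. These percentiles are given as values only, since the share of all promoters separated on this scale was not computed.

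**Figure D4:**
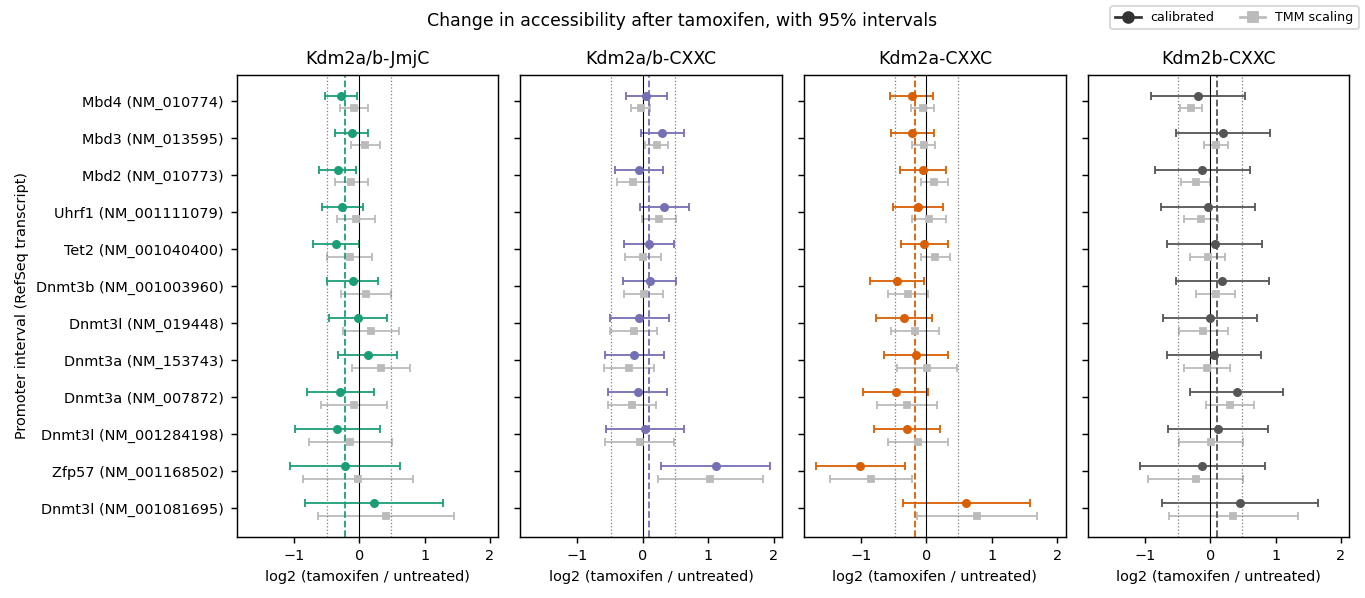
Log2 fold change after tamoxifen (x axis) at each interval in each line, with 95% limma intervals; coloured circles are calibrated values and grey squares TMM-scaled ones, the dashed line is the median of all promoters on the calibrated scale and dotted lines mark 1.4-fold. The widest intervals belong to Kdm2b-CXXC and to the promoters with few reads, and Zfp57 departs from it upwards in Kdm2a/b-CXXC (1.11) and downwards in Kdm2a-CXXC (-1.01).

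The log2 fold change of Zfp57 had opposite signs in Kdm2a/b-CXXC and Kdm2a-CXXC, and the difference between the tamoxifen effects was tested in 1 limma model over all 26 libraries, a comparison chosen after these values were seen. The effect in Kdm2a/b-CXXC minus that in Kdm2a-CXXC was 2.12 on the log2 scale (95% interval 0.99 to 3.26). It did not pass adjustment over the 19621 promoters tested (limma adjusted p = 0.779). With TMM scaling the difference was 1.88 (limma adjusted p = 0.326). Over the 6 pairs of lines, 0 of 12 members differed at an adjusted p under 0.05 and over 1.4-fold, and 0% of all promoters did. At an unadjusted p under 0.05 in at least 1 pair there were 2 of 12, Zfp57 and the upstream Dnmt3a promoter, against 16.8% of all promoters (limma). With TMM scaling there were 3 of 12, Zfp57, Uhrf1 and Mbd4, against 22.0% of all. Without treatment the percentiles of Zfp57 ran from 9.35 to 23.2 in Kdm2a/b-CXXC and from 32.4 to 37.1 in Kdm2a-CXXC. After tamoxifen they were 21.6 to 29.0 and 23.5 to 25.7, and in the other lines they lay between 15.6 and 33.2 over both groups.

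The use of alternative promoters does not depend on the calibration, since both counts come from the same library. The internal promoter held 53.5% ± 10.3 of the Dnmt3a promoter reads without treatment and 60.8% ± 3.05 after tamoxifen in Kdm2a/b-JmjC (SD, n = 3), from 84 to 124 reads per library. It held 55.1% ± 5.54 and 49.1% ± 6.0 in Kdm2b-CXXC (SD, n = 3), 49.0% ± 8.40 and 54.4% ± 12.1 in Kdm2a-CXXC (SD, n = 3), and 50.4% ± 6.75 and 49.6% ± 9.05 in Kdm2a/b-CXXC (SD, n = 4). Over all libraries the share ran from 36.1% to 64.5%, and the groups overlapped in every line. NM_019448 held 61.9% ± 4.05 of the Dnmt3l promoter reads without treatment and 64.7% ± 7.60 after tamoxifen in Kdm2a/b-JmjC (SD, n = 3), and between 48.0% and 71.0% in single libraries of the other lines. Exact two-sided permutation tests of the shares, 8 in all, gave p from 0.3 to 0.8 and adjusted p from 0.686 to 0.8. The smallest p possible is 0.1 with 3 libraries against 3 and 0.0286 with 4 against 4.

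The remaining DNA methylation genes were read from lists of writing and maintenance genes, readers, base excision partners and NuRD subunits, together with Dnmt1, Tet1, Tet3 and Mbd1, whose proteins (or long forms) carry a ZF-CxxC domain of their own. No promoter of any list was called in any line. The counts were 0 of 7 for writing and maintenance genes and 0 of 12 for base excision and demethylation partners in every line. Among other readers and their partners 7 promoters were tested in each line but Kdm2b-CXXC, where 9 were, and among NuRD subunits 11 and 12 likewise, with 0 called. At an unadjusted p under 0.05 (limma) 9 of the 40 promoters of these lists tested in Kdm2a/b-JmjC were lower, close to the 20.3% of all promoters, and 2 of 41 in Kdm2a-CXXC were lower (8% of all). In Kdm2b-CXXC 1 of 45 was higher (0.669% of all in either direction), and 0 of 41 in Kdm2a/b-CXXC were higher (3.58% of all). Their median log2 fold changes were -0.21, -0.29, -0.22 and -0.26 in Kdm2a/b-JmjC for writing and maintenance, readers, base excision and NuRD, close to the -0.21 of all promoters. In Kdm2a/b-CXXC these medians were 0.01, 0.05, 0.15 and 0.02, against 0.09 for all promoters. They were 0.01, -0.03, 0.14 and 0.16 in Kdm2b-CXXC (all promoters 0.10) and -0.27, -0.26, -0.17 and -0.19 in Kdm2a-CXXC (all promoters -0.18).

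The log2 fold changes of the ZF-CxxC genes ranged from 0.08 to 1.29 over 5 promoters in Kdm2b-CXXC, from -0.12 to 0.39 over 4 in Kdm2a-CXXC, from -0.18 to 0.36 over 4 in Kdm2a/b-CXXC and from -0.21 to 0.0034 over 3 in Kdm2a/b-JmjC, with the smallest adjusted p at 0.53 (limma). The highest was Tet1, the main TET enzyme of mESCs, in Kdm2b-CXXC, with 6.92, 8.50 and 2.63 calibrated reads without treatment and 23.7, 8.87 and 15.5 after tamoxifen (limma adjusted p = 1.00). These groups were separated only by the step from 8.50 to 8.87. This Tet1 interval (NM_001253857) ranked low, with a median percentile of 19.5 over all 26 libraries (range 1.88 to 31.7). In the same line the glycosylase gene Neil1 had a log2 fold change of 0.80 (limma adjusted p = 1.00).

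The smallest p of these lists in Kdm2a/b-JmjC belonged to Gatad2a (NM_001286450), a NuRD subunit gene, and to Gadd45a, a stress-response gene linked to demethylation. Gatad2a read 481, 557 and 415 calibrated reads without treatment and 409, 352 and 326 after tamoxifen, which is -0.41 on the log2 scale (SE 0.10, adjusted p = 0.0515 by limma). All tamoxifen libraries lay below all untreated ones, by a gap of only 409 to 415, as they did at 23.2% of all promoters tested in this line. Gadd45a read 280, 329 and 280 and then 221, 217 and 239, which is -0.39 on the log2 scale (SE 0.12, adjusted p = 0.086 by limma). In Kdm2a-CXXC the lowest p belonged to another Gatad2a promoter (NM_001113346, -0.44) and to Mat2a, which makes the methyl donor S-adenosylmethionine (-0.39), with adjusted p of 0.581 and 0.59 (limma). In Kdm2a/b-CXXC Gadd45b, a relative of Gadd45a, gave 0.31 with a limma adjusted p of 0.996.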

How the data were processed

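ATAC-seq libraries from 4 conditional mESC lines, untreated or tamoxifen-treated, were analysed. Another 26 input genomic DNA samples, used by the authors to correct the spike-in, were not analysed here. Per the study's methods, the authors aligned reads with Bowtie 2 to concatenated mm10 and dm6 genomes, removed multi-mapping reads, PCR duplicates (SAMtools), blacklisted and mitochondrial reads, and counted mouse reads over 20633 promoters. The deposited library columns are a signal, reads divided by a DESeq2 size factor from input-corrected Drosophila reads. Deposited columns with the authors' own comparisons (mean, log2 fold change, standard error, statistic, p-value, adjusted p) were not used.

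Size factors were recovered from the steps between values, and 100% of values came out as whole reads (tolerance 0.001 reads). Depth was between 1488370 and 3025358 promoter reads per library. Promoters with few reads were removed with filterByExpr of edgeR 4.0.16 (minimum count 10), and each line was then tested two-sided with limma 3.58.1, its trend option on, using log2(calibrated reads + 1) in R 4.3.3. Fold changes on this scale understate changes at low values. Since tables were calibrated separately, groups were tested within a line, and effects were compared between lines only as differences of within-line contrasts. Alternatives were TMM, total-read and median-of-ratios scaling, a pseudocount of 5, no filter, edgeR's quasi-likelihood test and DESeq2 1.42.0 on recovered reads, the replicate number as a block, and leaving out each library. The model across lines and the tests of promoter shares were added after the data were seen. The fits were checked on simulated reads with planted changes. Size factors were taken as exact there, so the spread of the calibration between libraries was not part of that check.

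Symbols were matched for 99.1% of identifiers in RefSeq (GRCm38.p6), and 97.5% of intervals had the annotated TSS of their transcript within 200 bp of the centre. Base composition covered 20630 promoters, and coordinates are 1-based. The members and gene lists were chosen with earlier results of these data known. The plot of calibrated reads by line shows all members in every line. The text gives the changes of all tested members in Kdm2a/b-CXXC and of a selection of members in the other lines. From the other lists, the 2 promoters with the smallest unadjusted p per line were taken where none passed the thresholds. Of these, 1 is not reported here. No promoter sequence of Mbd2 is shown.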

Additional observations from a re-analysis of the deposited data

Results flagged for a closer look

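Of 24 groups of 4 libraries tested for a single library far from the rest (12 intervals in the untreated and tamoxifen groups of Kdm2a/b-CXXC, calibrated reads), 1 had such a library, where chance gives about 1 in 20 groups. It was Dnmt3b after tamoxifen, where replicate 1 read 107 calibrated reads and the others 77.2, 81.2 and 80.2, a gap of 0.867 of the group's range (Dixon's test at 95%). The same library had the highest calibrated total over all promoters in its line, 2.04e+06, and Dnmt3b's percentile in it was 58.8, within the 54.4 to 64.4 of the others. The part of the library's calibration in this value was not tested.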

How the results depend on the processing

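The count of members called changed stayed at 0 in all 58 refits over the 4 lines, although in the DESeq2 refit of Kdm2a/b-JmjC 9 of the 12 had no adjusted p and could not be called. The lowest adjusted p of a member was 0.0569 (limma), in Kdm2a-CXXC with the replicate block. With that block 5 of the 12 members were lower in this line at an unadjusted p under 0.05, against 2 without it (limma). Of all 17727 promoters tested there, 3789 were lower with the block and 1418 without it. Scaling moved values more than the test did. The median log2 fold change of the members went to -0.035 with TMM, -0.0269 with total reads and -0.0326 with median-of-ratios scaling in Kdm2a/b-JmjC, and to -0.0502, -0.0354 and -0.0456 in Kdm2a-CXXC. Of the 47 log2 fold changes of members, 11 took the other sign with TMM scaling and 5 moved by more than the replicate SD. With edgeR, DESeq2 or a pseudocount of 5, 0 moved that far. The filter and the block cannot move a log2 fold change, since size factors are fixed and groups balanced, and bear only on its p-value. The cause of the moves with scaling was not tested. Among all promoters, the count of changed ones in Kdm2a/b-JmjC was 0 with TMM, total-read and median-of-ratios scaling, 71 with a pseudocount of 5 and 113 with edgeR, against 13. The 3 scalings gave 17, 18 and 17 in Kdm2a/b-CXXC and 1 each in Kdm2b-CXXC, against 0.

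With a library left out, changed promoters ranged from 0 to 607 in Kdm2a/b-JmjC (607 without tamoxifen replicate 1, 59 without untreated replicate 3), 0 to 8 in Kdm2a/b-CXXC (8 without tamoxifen replicate 4, 5 without tamoxifen replicate 1), 0 to 43 in Kdm2a-CXXC (43 without tamoxifen replicate 3) and 0 to 0 in Kdm2b-CXXC. Promoters of the other machinery lists called in Kdm2a/b-JmjC ranged from 0 to 1 (1 without untreated replicate 3 or tamoxifen replicate 1). The members' median ranged from -0.236 to -0.138, -0.00122 to 0.134, -0.278 to -0.145 and -0.192 to 0.209 in the same order of lines.

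On TMM-scaled reads same-numbered libraries deviated together weakly at most. The correlations ran from -0.00568 to 0.0725, under the 0.1 set as the minimum for a pair. Numbers were therefore not taken as pairs, although in Kdm2a/b-JmjC every library correlated best with its own number. TMM scaling takes out shifts of a whole library, so this check cannot see pairing in the calibration. In replicate order the calibrated totals were 2.13e+06, 2.30e+06 and 2.51e+06 untreated and 1.76e+06, 2.04e+06 and 2.33e+06 after tamoxifen in Kdm2a-CXXC. Untreated and tamoxifen totals ranked alike by number there and in Kdm2b-CXXC, but not in Kdm2a/b-JmjC or Kdm2a/b-CXXC. Whether the numbers mark pairs was not settled. With the replicate block 188 promoters were called in Kdm2a-CXXC, 62 in Kdm2a/b-JmjC and 5 in Kdm2b-CXXC. Depth limits Zfp57 and Dnmt3l NM_001081695 most, with as few as 5 reads in a library.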
